A study of Mus musculus with 8 samples.

Results

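Peaks of open chromatin were examined in the gene-dense megabases of the mouse genome. The peaks came from ATAC-seq (assay for transposase-accessible chromatin), in which the transposase Tn5 cuts DNA where it is not protected. Chromosomes 1 to 19 beyond position 6000000 were divided into fixed windows of 1 Mb, and a window was called gene-dense when it held 25 or more midpoints of protein-coding genes in a RefSeq gene table (GRCm38.p6, which is mm10). Windows in which more than 50% of these genes had Olfr, Vmn or Zfp symbols (olfactory receptors, vomeronasal receptors and zinc finger proteins) were left out of the gene-dense set, which moved 28 windows to the others. This left 135 gene-dense windows among 2337 whole windows, or 5.78% of the length, with 4897 of the 19834 protein-coding genes (24.7%). They held 25 to 67 genes each, with a median of 34. Over the 8 libraries, 39723 of 649153 listed peak intervals had their summit in a gene-dense window, and 590538 lay in the other windows.

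The sgNr2f2 mice had received an adeno-associated virus with a guide RNA against Nr2f2, which encodes an orphan nuclear receptor (sgNr2f2, 4 libraries), and the controls a guide against the Rosa26 locus (sgRosa, 4 libraries). All 8 libraries came from male C57BL/6J mice whose amygdala had been transduced. Both groups were later exposed to tube restraint on 7 days, fear conditioning on 1 day and extinction training on 3 days, so no unstressed animals entered the comparison. Nuclei were taken from neurons isolated with a magnetic kit; the age of the mice, the source of the nuclease and the share of neurons that carried the virus were not given in the labels. Nr2f2 itself lies outside these windows, and peak lists do not measure its knockdown.

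Gene-dense stretches of mammalian chromosomes are usually rich in G and C bases, replicate early and lie in the active compartment of the nucleus. Many of their genes are expressed in most cell types and start at CpG islands, where nucleosomes are kept away from the transcription start. In ATAC-seq of nuclei with a clear signal, such starts are among the sites most often cut. Gene clusters made by duplication, such as those for keratins, kallikreins, defensins or protocadherins, also give gene-dense windows although most of their members are active in few tissues.

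The lists of these libraries held mostly weak peaks. Within the whole windows they had between 52186 and 138775 peaks, and no read counts came with them, so the depth of each library is unknown. In gene-dense windows, between 4.95% and 19.4% of a library's peaks passed a q of 0.05, and 14 to 28 peaks had a −log10 q of at least 5. As a check of the label, the ends of 8 genes that mark neurons (Snap25, Syt1, Rbfox3, Tubb3, Map2, Stmn2, Nefl and Eno2) were searched for a summit within 1 kb in the full lists. All 8 markers had a peak in at least 1 library, but a single library held 1 to 3 of them in either group. Between 0 and 3 of the markers of astrocytes, oligodendrocytes, microglia or vascular cells (6 each) had one in a single library, with Aqp4, Slc1a3, Mag, Olig2, C1qa, P2ry12 and Pecam1 in none. These peak lists therefore neither bear out nor go against the cell type by its markers.

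The promoter sequences of 3 of the genes described below are given as examples of promoters with peaks in 4 or more libraries. They need not be typical of gene-dense windows, since Pfdn2 has 45.0% G and C there against a mean of 57.6% over all gene-dense promoters. They run 5′ to 3′ along the gene's strand, with 250 bases before the listed start and 50 from it on, and come from RefSeq (GRCm38.p6). Capitals mark the bases that lay under peaks of 3 or more libraries. Pfdn2 encodes a subunit of the chaperone prefoldin and was the promoter with the most libraries, 3 of sgNr2f2 and 3 of sgRosa (chr1:171344704-171345003, plus strand). Hdgfl2, which encodes a chromatin reader related to hepatoma-derived growth factor, had peaks of 1 sgNr2f2 and 3 sgRosa libraries in this window (chr17:56079381-56079680, plus strand). Znrd1as, the gene next to the RNA polymerase I subunit gene Znrd1, had peaks of 0 sgNr2f2 and 4 sgRosa libraries (chr17:36958350-36958649, plus strand).
Pfdn2: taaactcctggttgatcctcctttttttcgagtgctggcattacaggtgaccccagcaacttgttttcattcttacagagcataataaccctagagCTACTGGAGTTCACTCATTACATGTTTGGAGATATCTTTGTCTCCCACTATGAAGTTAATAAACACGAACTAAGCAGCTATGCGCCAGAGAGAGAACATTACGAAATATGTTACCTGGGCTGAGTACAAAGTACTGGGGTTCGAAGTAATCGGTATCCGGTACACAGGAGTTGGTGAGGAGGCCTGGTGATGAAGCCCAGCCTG
Hdgfl2: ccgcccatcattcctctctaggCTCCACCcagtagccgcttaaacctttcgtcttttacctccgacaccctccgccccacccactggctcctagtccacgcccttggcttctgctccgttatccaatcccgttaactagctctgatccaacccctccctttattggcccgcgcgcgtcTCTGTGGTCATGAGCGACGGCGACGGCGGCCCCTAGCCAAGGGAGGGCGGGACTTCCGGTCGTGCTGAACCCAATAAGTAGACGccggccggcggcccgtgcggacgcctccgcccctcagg
Znrd1as: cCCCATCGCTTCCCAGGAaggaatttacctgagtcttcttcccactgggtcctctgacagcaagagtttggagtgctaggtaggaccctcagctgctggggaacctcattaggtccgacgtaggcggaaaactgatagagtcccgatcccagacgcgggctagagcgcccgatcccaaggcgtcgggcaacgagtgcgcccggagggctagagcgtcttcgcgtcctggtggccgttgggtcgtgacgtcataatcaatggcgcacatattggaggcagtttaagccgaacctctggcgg

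In Pfdn2, peaks of 3 or more libraries covered 204 of the 300 bases, across the start to the end of the window. In Hdgfl2 they covered 91 bases, most of them just before the start, and in Znrd1as 17 bases at the far end from the start. Short motifs were searched on both strands. The cyclic AMP response element TGACGTCA begins 7 bases before the Znrd1as start, outside the capitals, and is present in 2.29% of all 19357 promoters and in 2.44% of the 4794 promoters of gene-dense windows. In Hdgfl2, a GC box (GGGCGG) begins 28 bases and an ETS site (CCGGAAG, on the other strand) 20 bases before the start, both within the capitals. Further GC boxes on the other strand begin 250 and 179 bases before the start and at base 39 past it, outside the capitals. The GC box is in 49.3% of gene-dense promoters and the ETS site in 13.4%. The nuclear receptor half-site AGGTCA, of the kind that Nr2f2 protein binds in pairs, is in none of the 3 windows and in 15.3% of gene-dense promoters, against 14.7% of all promoters. Neither it, the response element, the GC box, the ETS site nor the E-box CACGTG has a match in the Pfdn2 window.

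The density of peaks in the gene-dense windows differed between libraries in size and in direction. Gene-dense windows held 54.7, 40.1, 36.8 and 30.7 peaks per Mb in sgNr2f2 libraries 1 to 4 and 20.8, 24.3, 30.01 and 56.8 in sgRosa libraries 1 to 4. The other windows held 42.5, 40.7, 25.7 and 21.8 peaks per Mb in sgNr2f2 and 26.9, 26.0, 25.1 and 59.5 in sgRosa. Taken within each library, so that its number of peaks divides out, the ratio of gene-dense to other windows was 1.29, 0.985, 1.43 and 1.41 in sgNr2f2 and 0.775, 0.934, 1.20 and 0.955 in sgRosa. Gene-dense windows were thus the denser ones in 3 sgNr2f2 libraries and 1 sgRosa library. The ratio still depended on how far down a list was read. In all 8 libraries it was higher among the strongest 500 peaks than among all, as in sgRosa 1 (1.23 against 0.775).

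Over all 8 libraries the log2 density ratio averaged 0.14 ± 0.32 (SD, n = 8). It was above 0 in 4 of 8 libraries, with a two-sided exact sign-flip permutation p of 0.281 (adjusted over 3 comparisons of gene-dense with other windows, 0.645). An excess of peaks in gene-dense windows was therefore not shown for the libraries as a whole. The 11 gene-dense windows with exactly 25 genes had a mean density of 1.01 times that of the other windows, and the 7 windows with 24 genes, just outside the rule, 1.09 times.

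Between the groups, the density ratio averaged 1.28 ± 0.206 in sgNr2f2 and 0.965 ± 0.174 in sgRosa (n = 4 each, SD). The groups overlapped, since sgNr2f2 2 (0.985) lay below sgRosa 3 (1.20). On the log2 scale sgNr2f2 was 0.41 higher (exact permutation, two-sided, p = 0.0571, and 0.229 after adjustment over 4 comparisons of the groups), which did not pass. With 4 libraries a side, no p below 0.0286 can be reached, so 1 of these 4 measures alone cannot pass after adjustment. As shares, gene-dense windows took 7.26 ± 1.09% of the sgNr2f2 peaks and 5.58 ± 0.947% of the sgRosa peaks (n = 4 each, SD).

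The number of genes graded the density in most libraries, in opposite directions. In windows without a protein-coding gene the density relative to the library mean was 0.792, 0.973, 0.587 and 0.813 in sgNr2f2 and 1.26, 1.10, 0.888 and 1.06 in sgRosa. In gene-dense windows it was 1.27, 0.986, 1.40 and 1.37 in sgNr2f2 and 0.785, 0.938, 1.18 and 0.957 in sgRosa. The density rose with each class of gene number in sgNr2f2 1, 3 and 4 and in sgRosa 3. It fell with each class in sgRosa 1 and sgRosa 4, and sgNr2f2 2 and sgRosa 2 lacked a steady order.

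**Figure D1:**
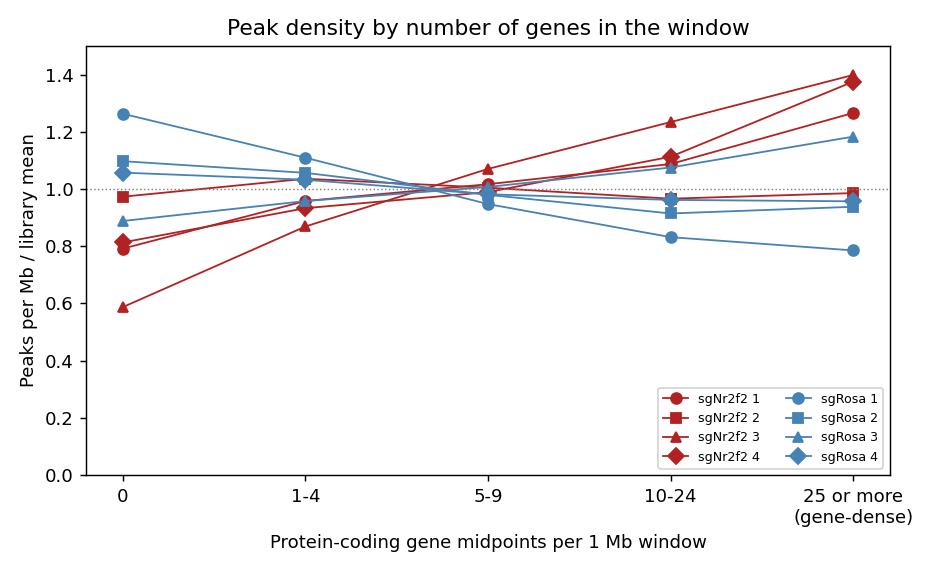
Peaks per Mb relative to the library mean (vertical axis) in 1 Mb windows grouped by their number of protein-coding gene midpoints (horizontal axis), with a line for each of the 4 sgNr2f2 (red) and 4 sgRosa (blue) libraries. In the gene-dense class sgNr2f2 3 is highest, at 1.40, and sgRosa 1 lowest, at 0.785, and in windows with no gene their order is turned round, at 0.587 and 1.26.

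The same split held across chromosomes within a library. Gene-dense windows were denser than the other windows of the same chromosome on 17, 9, 18 and 16 of 19 chromosomes in sgNr2f2 1 to 4 and on 3, 6, 16 and 6 in sgRosa 1 to 4. The composition of the sequence was compared through the RefSeq promoters, which averaged 57.6% G and C in gene-dense and 56.2% in other windows. Over the 8 libraries the log2 density ratio had a Pearson r of -0.16 (permutation p = 0.732) and a Spearman rho of -0.33 (p = 0.428) with the GC content of the promoters that held a peak in the other windows. With the number of peaks r was -0.23 (permutation p = 0.591) and rho -0.29 (p = 0.501). After adjustment over these 2 relations all p were 0.501 or higher, and without the 2 libraries farthest from the median r was -0.43 and -0.33. These relations, chosen after the density ratios had been seen, were not shown, and the part of fragment length, duplicates or other differences between libraries was not tested.

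A difference in strength between peaks of gene-dense and other windows was not shown. Strength was taken as the rank of a peak's −log10 p within its own list, from 0 to 100, because the deposited values are not scaled between libraries. The mean rank in gene-dense minus other windows was 0.19, 0.26, -0.91 and -1.47 in sgNr2f2 1 to 4 and 0.71, 0.17, 0.083 and 0.015 in sgRosa 1 to 4. The 8 differences averaged -0.12 ± 0.71 rank points (SD, n = 8; exact sign-flip permutation p = 0.695). Between the groups they averaged -0.48 ± 0.85 in sgNr2f2 and 0.24 ± 0.32 in sgRosa (n = 4 each, SD; difference -0.73, exact permutation p = 0.286, adjusted p = 0.314). All of these are shifts of less than 2 rank points of 100. The exact p of the alternatives were not adjusted, and before adjustment both calls depended on the setting. The 8 differences averaged -0.49 with windows moved by 500 kb (exact p = 0.0469). They turned positive in lists of equal length (0.51), among peaks with a q under 0.05 (1.03) and without sgNr2f2 4 (0.074), where they did not pass. Among peaks with a q under 0.05 the group difference was -2.17 (exact p = 0.0286).

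The median fold enrichment over background, the peak caller's own value, was 2.59 ± 0.0534 in sgNr2f2 and 2.65 ± 0.0671 in sgRosa in gene-dense windows, and 2.61 ± 0.0634 and 2.65 ± 0.0497 in the other windows (n = 4 each, SD). Median peak widths in gene-dense windows were 166 to 172 bp in sgNr2f2 and 164 to 170 bp in sgRosa. Peaks with a q under 0.05 made up 8.39%, 6.01%, 18.7% and 12.2% of gene-dense peaks in sgNr2f2, and 19.4%, 4.95%, 10.3% and 7.69% in sgRosa. The spread between libraries of a group was wider than any gap between gene-dense and other windows of a library.

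The top of each list was examined separately. Among the 500 strongest peaks, the density ratio was 1.89, 1.46, 2.10 and 1.57 in sgNr2f2 and 1.23, 1.19, 1.73 and 1.04 in sgRosa, above 1 in 8 of 8 libraries. The log2 ratio averaged 0.57 ± 0.35 (SD, n = 8; exact sign-flip permutation p = 0.0078, the smallest possible, and 0.03125 adjusted over 4 comparisons added after the data had been seen). This excess did not pass without the regions that all 8 libraries shared. With those regions left out before the 500 strongest were taken, the ratio was 1.42, 0.858, 1.69 and 1.34 in sgNr2f2 and 0.786, 0.931, 1.42 and 0.859 in sgRosa. The log2 mean was then 0.16 (exact p = 0.320). With these regions kept, it was 0.41 among the 1000 strongest peaks (exact p = 0.0156) and 0.17 among the 5000 strongest (exact p = 0.102).

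**Figure D2:**
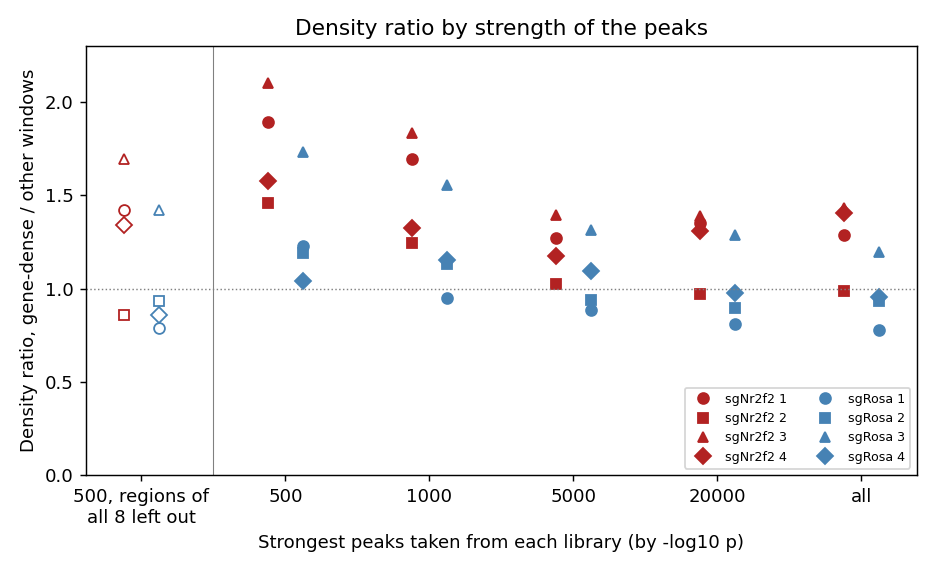
Density ratio of gene-dense to other windows (vertical axis) for the strongest 500, 1000, 5000 and 20000 peaks of each library and for all peaks (horizontal axis), with filled symbols for the 4 sgNr2f2 (red, left) and 4 sgRosa (blue, right) libraries. The open symbols at the left edge are the strongest 500 after regions of all 8 libraries were left out, where sgNr2f2 2 and sgRosa 1, 2 and 4 lie below 1.

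Those shared regions lay at few places. In lists cut to 52369 peaks each, the length of the shortest list, the peaks merged into 393916 regions, 24848 of them in gene-dense windows. Of the gene-dense regions 94.5% were found in 1 library only and 23 (0.0926%) in all 8, against 131 of 369068 (0.0355%) in the other windows. The 23 regions came down to 11 places when regions within 300 kb were joined, and 6 of the 23 overlapped a protein-coding gene. They include runs of neighbouring regions, so they are not 23 separate sites, and repeats had not been filtered.

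The strongest was chr15:75085459-75087110, 21051 bp from Ly6c2, which encodes a surface protein of myeloid cells. Its −log10 p was 791, 522, 762 and 612 in sgNr2f2 1 to 4 and 632, 534, 702 and 392 in sgRosa 1 to 4, with fold enrichments of 13.4 to 16.7. On chromosome 2, 7 regions stood between 181917222 and 181931408, near Gm40035. The strongest of them, chr2:181917222-181918199, had a −log10 p of 234, 225, 314 and 189 in sgNr2f2 and 245, 225, 257 and 179 in sgRosa. Another 6 lay on chromosome 17 between 23293522 and 23520248, among the vomeronasal receptor genes Vmn2r114, Vmn2r115 and Vmn2r117 and near Zfp213. At both regions given by value the ranges of the groups overlapped.

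Single regions of all 8 libraries lay at chr9:110281199-110281438, 18623 bp from the brain proteoglycan gene Cspg5, and at chr17:36231190-36231671, 24002 bp from Rpp21, a subunit of ribonuclease P. The one at chr4:118548153-118548348 was 3233 bp from Tmem125, and chr16:17222143-17222565 was 8161 bp from Rimbp3. Regions at chr12:84841688-84842050 and chr6:113809745-113810000 were inside Ltbp2, an extracellular matrix protein gene, and Atp2b2, a plasma membrane calcium pump gene of neurons. A pair inside the mucin gene Muc3 and 1 inside Gm7827 (chr8:71130226-71132310) complete the 11 places. A region of another kind, found in all 4 libraries of a group and in none of the other group, was absent from the gene-dense windows in both directions, against 3 each way (0.000762% of 393916 regions) over all windows.

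Single windows ranged widely around the average. Relative to the mean of a library's other windows, the densest were led by chromosome 17 from 56 to 57 Mb, with 41 genes that include Hdgfl2, Ubxn6 and the lipid droplet genes Plin3, Plin4 and Plin5. It reached 1.81, 1.06, 2.49 and 1.56 in sgNr2f2 1 to 4 and 1.38, 2.00, 2.15 and 1.14 in sgRosa 1 to 4. The window on chromosome 3 from 95 to 96 Mb, with the survival factor gene Mcl1 and the cathepsin genes Ctss and Ctsk, had 1.48, 1.23, 1.13 and 1.93 in sgNr2f2 and 1.45, 1.27, 2.07 and 1.53 in sgRosa. On chromosome 2, the window from 181 to 182 Mb with the neuronal acetylcholine receptor gene Chrna4 had 1.60, 1.84, 2.18 and 1.65 in sgNr2f2 and 1.08, 1.04, 1.08 and 1.23 in sgRosa, and it holds the 7 shared regions near Gm40035. Its mean over the libraries was 1.46 with all peaks and 3.48 among peaks with a q under 0.05. All 3 windows were above 1 in every library, as was 1 further gene-dense window of the 135.

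Others high in the order were so in part of the libraries. The window on chromosome 8 from 70 to 71 Mb, with Rab3a, Crtc1 and Homer3, genes of synaptic vesicle release, activity-dependent transcription and the postsynaptic density, averaged 1.93 ± 0.608 in sgNr2f2 and 1.31 ± 0.781 in sgRosa (n = 4 each, SD). The kallikrein window on chromosome 7 from 43 to 44 Mb averaged 1.86 ± 0.627 in sgNr2f2 and 1.29 ± 0.356 in sgRosa. The window on chromosome 17 from 25 to 26 Mb, with the calcium channel gene Cacna1h, averaged 1.86 ± 0.419 in sgNr2f2 and 1.23 ± 0.908 in sgRosa, where values ran from 0.484 to 2.55. In all 3 the ranges of the groups overlapped.

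The 4 least dense windows held genes of several kinds. The defensin window on chromosome 8 from 21 to 22 Mb, with 41 genes of antimicrobial peptides and their neighbours, had 0.400, 0.467, 0.273 and 0.596 in sgNr2f2 and 0.484, 0.270, 0.199 and 0.218 in sgRosa. The stefin and cystatin window on chromosome 16 from 36 to 37 Mb averaged 0.712 ± 0.254 in sgNr2f2 and 0.552 ± 0.314 in sgRosa (n = 4 each, SD). The window on chromosome 11 from 96 to 97 Mb, which holds HoxB genes beside others, averaged 0.760 ± 0.313 in sgNr2f2 and 0.656 ± 0.313 in sgRosa. A window on chromosome 19 from 8 to 9 Mb, which holds organic anion transporter genes such as Slc22a6 and Slc22a8 as well as many broadly expressed genes, averaged 0.819 ± 0.161 in sgNr2f2 and 0.451 ± 0.0545 in sgRosa. The defensin window and the one on chromosome 19 were below 1 in all 8 libraries, as were 2 further gene-dense windows. Among peaks with a q under 0.05 alone, the window on chromosome 19 had a mean over the libraries of 1.08, above 1, against 0.635 with all peaks. Whether reads map uniquely in the duplicated clusters was not tested.

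Window by window, the groups were compared with limma on log2(peaks per 10000 listed peaks + 1) in lists of equal length, with adjustment over all 2337 windows. With an adjusted p of 0.05 as the threshold, sgNr2f2 was called higher in 0% and lower in 0% of all windows, and so 0 of the 135 gene-dense windows were. Before adjustment, 19 gene-dense windows with higher and 1 with lower sgNr2f2 values had a p under 0.05, against 108 and 143 of all windows. The group mean was higher in sgNr2f2 in 106 of the 135 gene-dense windows (78.5%), with a median log2 difference of 0.37, against 49.5% and a median of -0.0024 in the other windows. This is the density difference given above seen window by window, and the windows of a library are not independent.

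The smallest adjusted p was reached on chromosome 8 from 105 to 106 Mb, with 49 genes, named after its values were seen. It held 51, 23, 46 and 56 peaks in sgNr2f2 1 to 4 and 16, 17, 19 and 15 in sgRosa 1 to 4, so the groups did not overlap. The log2 difference was 1.11 (SE 0.256, limma adjusted p = 0.299). Without sgNr2f2 2, which had the lowest value of its group, this window was the only gene-dense one to pass, with a log2 difference of 1.35 and a limma adjusted p of 0.0482.

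**Figure D3:**
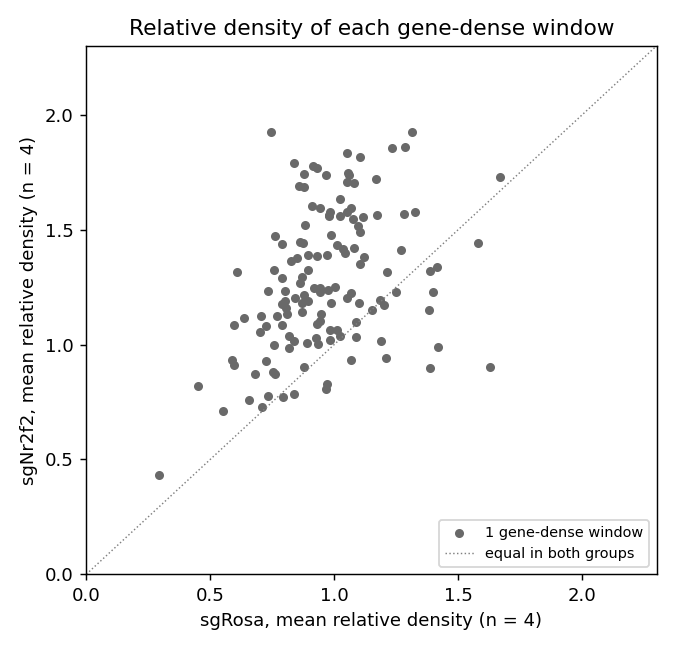
Mean density of each of the 135 gene-dense windows relative to the library's other windows, in sgNr2f2 (vertical axis, mean of 4 libraries) against sgRosa (horizontal axis, mean of 4 libraries), with a dotted line where the groups are equal. Most points lie above the line, and the defensin window is at the lower left, at 0.434 in sgNr2f2 and 0.293 in sgRosa.

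Within the gene-dense windows the peaks were divided by position. Stretches within 1 kb of a gene end made up 12.2% of the length, gene bodies 50.4% and the space between genes 37.4%. In sgNr2f2, 13.8 ± 0.966% of the gene-dense peaks were at gene ends, 55.3 ± 1.75% in gene bodies and 31.0 ± 2.66% between genes (SD, n = 4). In sgRosa the shares were 15.7 ± 1.83%, 52.9 ± 1.96% and 31.3 ± 1.47% (SD, n = 4).

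The density at gene ends over that elsewhere in the gene-dense windows was 1.17, 1.01, 1.21 and 1.20 in sgNr2f2 and 1.54, 1.45, 1.22 and 1.15 in sgRosa. Its mean was 1.15 ± 0.0923 in sgNr2f2 and 1.34 ± 0.185 in sgRosa (n = 4 each, SD; log2 difference -0.22, exact permutation p = 0.171, adjusted p = 0.314). Without sgRosa 4 the groups no longer overlapped and the log2 difference was -0.29, with an exact p of 0.0286 before adjustment. With any other single library left out the exact p was 0.143 to 0.343. Against the same enrichment in the other windows of a library, that in gene-dense windows differed by 0.042 ± 0.15 on the log2 scale (SD, n = 8; exact sign-flip permutation p = 0.430).

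Starts and other ends of genes could be told apart for 3058 gene-dense genes whose start in the promoter table, which carries the strand, matched an end in the gene table within 100 bp. Summits within 200 bp of the start numbered 107, 46, 54 and 53 in sgNr2f2 1 to 4 and 98, 103, 81 and 96 in sgRosa 1 to 4. Relative to the density elsewhere in these windows this was 1.63, 0.939, 1.23 and 1.45 in sgNr2f2 and 4.10, 3.66, 2.27 and 1.41 in sgRosa. At the other end of the same genes the relative density was 1.01 ± 0.181 in sgNr2f2 and 1.01 ± 0.0836 in sgRosa (n = 4 each, SD). A start thus stood out most in sgRosa 1 and 2, and least in sgNr2f2 2.

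Start over other end gave a mean log2 ratio of 0.87 ± 0.81 (SD, n = 8), above 0 in 7 of 8 libraries, with an exact sign-flip permutation p of 0.0156 and an adjusted p of 0.03125 over the 4 added comparisons. Among peaks with a q under 0.05 alone it did not pass (0.48, exact p = 0.359). A stronger enrichment of starts in gene-dense than in other windows was not shown, with a log2 difference of -0.039 ± 0.27 (SD, n = 8; exact p = 0.758). Among peaks with a q under 0.05 that difference was -0.49, with an exact p of 0.0234.

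Between the groups the relative density at starts averaged 1.31 ± 0.298 in sgNr2f2 and 2.86 ± 1.24 in sgRosa (n = 4 each, SD), a log2 difference of -1.03. It did not pass the exact permutation test (p = 0.0857, adjusted p = 0.114), as sgRosa 4 lay at 1.41, within the sgNr2f2 range. Without sgRosa 4 the log2 difference was -1.33, with an exact p of 0.0286 before adjustment. With any other single library left out the exact p was 0.0857 to 0.143. In the other windows the same measure was 1.54 ± 0.448 in sgNr2f2 and 2.62 ± 1.22 in sgRosa (n = 4 each, SD).

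**Figure D4:**
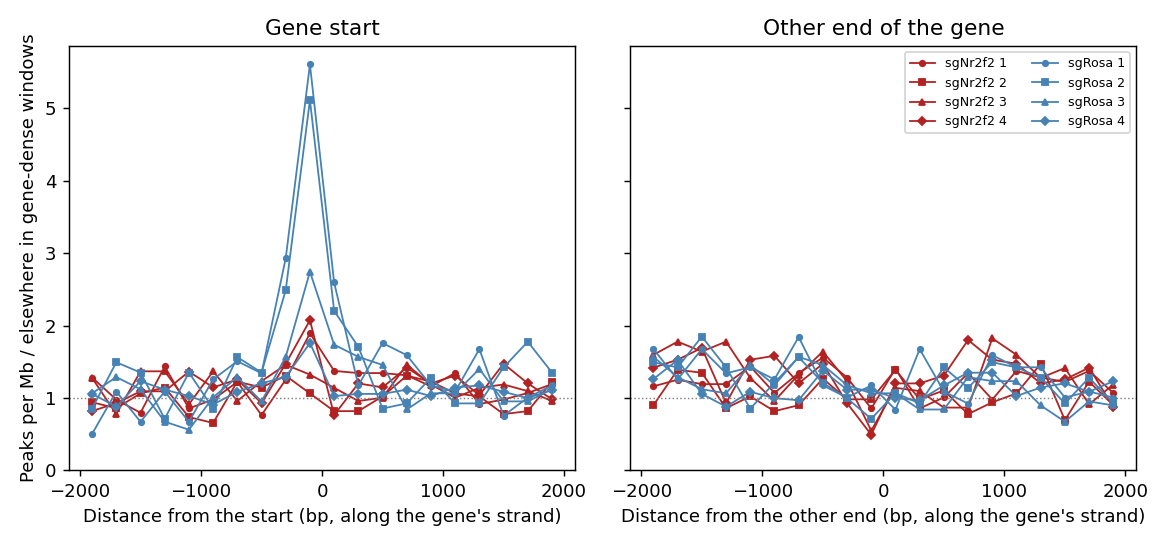
Density of summits in 200 bp bins around the start (left) and the other end (right) of 3058 genes in gene-dense windows, relative to the rest of these windows (vertical axis), by distance along the gene's strand in bp (horizontal axis), with a line for each sgNr2f2 (red) and sgRosa (blue) library. In the 200 bp before the start the values are 1.89, 1.06, 1.32 and 2.07 in sgNr2f2 1 to 4 and 5.61, 5.12, 2.74 and 1.76 in sgRosa 1 to 4, while no bin at the other end is above 1.85.

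In lists of equal length, promoters with a peak were also most frequent in sgRosa 1 and 2 and least frequent in sgNr2f2 2. Of the 4794 gene-dense promoters 2.27%, 0.980%, 2.19% and 2.17% had a peak in sgNr2f2 1 to 4 and 3.17%, 3.50%, 2.46% and 1.67% in sgRosa 1 to 4. The promoters with a peak averaged 59.5% and 59.1% G and C in sgRosa 1 and 2 and 55.1% in sgNr2f2 2, against 57.6% for all of them. Only 5 gene-dense promoters had peaks in 4 or more libraries, those of Pfdn2, Hdgfl2, Ubxn6, Znrd1 and Znrd1as. Hdgfl2 and Ubxn6, a cofactor of the p97 ATPase, are neighbours that start close together on opposite strands, as are Znrd1 and Znrd1as, so these 5 stand for 3 places.

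Gene by gene, in lists of equal length, few were found repeatedly. Of the 4897 genes, 58.1% had a summit within 1 kb of an end in at least 1 library and 1.45% in 4 or more, against 53.3% and 1.22% of the 14937 genes in the other windows. No gene-dense gene had it in all 8. Taco1, a translational activator of a mitochondrial cytochrome oxidase subunit, had it in 7 libraries, with −log10 p of 9.22, 14.4, 24.3 and 9.39 in sgNr2f2 1 to 4 and 7.65, 10.7 and 8.46 in sgRosa 1, 3 and 4. Their rank percentiles were 99.0 to 99.8. Pfdn2 had 5.90, 6.23, 6.19 and 7.38 in sgNr2f2 1 to 4 and 8.35, 3.91 and 6.84 in sgRosa 1 to 3.

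Several of the genes found most often share a peak with a neighbour. Nit1, a nitrilase gene, overlaps the start of Pfdn2 and was found in 3 sgNr2f2 and 3 sgRosa libraries, with the same strongest peak as Pfdn2 in 2 sgNr2f2 and 3 sgRosa libraries. Cdca3, a cell cycle gene, and Usp5, a deubiquitinase gene, lie end to end and had the same strongest peak in 2 sgNr2f2 and 4 sgRosa libraries, with −log10 p of 3.76 to 6.01. Hdgfl2 was found in 2 sgNr2f2 and 4 sgRosa libraries and Ubxn6 in 1 and 4, with −log10 p of 3.29 to 6.57 at Ubxn6. The Hdgfl2 summit of sgNr2f2 2 lay at the other end of the gene, 21167 bp from its start. The rank percentiles of the Ubxn6 peaks ran from 27.2 to 98.5, so the same end held a strong peak in some lists and a weak one in others.

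Genes found in 5 libraries included Mbd3, a subunit of the NuRD remodelling complex, in 2 sgNr2f2 and 3 sgRosa libraries, and the transcriptional repressor gene Cic in 3 and 2. A summit at either end of a gene counted, so its libraries need not share a site. The strongest Mbd3 summit was at most 410 bp from the start in sgNr2f2 3 and 4 and sgRosa 2. In sgRosa 3 and 4 it was 7490 and 7946 bp away, at the other end. All Cic summits lay 46 to 474 bp past the start, while every other gene of this paragraph had summits at both ends. The clathrin adaptor gene Ap2a1, the mitochondrial genes Opa3 and Tomm34 and the zinc finger gene Zfp647 were each found in 2 sgNr2f2 and 3 sgRosa libraries. Plin4 and Fam78a were found in 3 sgNr2f2 and 2 sgRosa libraries. Trim31, a ubiquitin ligase gene, was found in 4 sgNr2f2 libraries and 1 sgRosa library, and Znrd1 in 1 and 4. The Trim31 summit of sgRosa 4 lay 11607 bp from the start and the Znrd1 summit of sgNr2f2 2 lay 4045 bp from it, each at the other end. Gstm1, a glutathione transferase gene, and Rnf5, a ubiquitin ligase gene of the endoplasmic reticulum, had peaks in 2 libraries of each group, and the olfactory channel subunit gene Cnga4 in 1 and 3.

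Exclusive gene ends were those found in 4 of 4 libraries of a group and 0 of the other, in lists of equal length. They numbered 0 for sgNr2f2 (background over all windows 0.00504% of 19834 genes) and 1 for sgRosa (background 0.0252%). The gene was Znrd1as, with −log10 p of 5.67, 4.53, 3.08 and 4.69 in sgRosa 1 to 4. A single gene of 4897 is a share near the background, and no gene can pass an adjustment here.

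Families that fill gene-dense windows were described by counts in lists of equal length, without a test. Beside them, 58.1% of all 4897 genes were found in at least 1 library, and 1289 had more sgNr2f2 than sgRosa libraries with a peak, 1101 had fewer and 2507 the same number. Of 29 genes with ribosomal protein symbols 58.6% were found in at least 1 library, 4 more often in sgNr2f2 and 8 more often in sgRosa. Rps21 was found in 2 libraries of each group. The kinase gene Rps6ka4, which the symbol prefix also takes in, was found in 2 and 0. Of 27 mitochondrial ribosomal protein genes 74.1% were found, 9 more often in sgNr2f2 and 8 more often in sgRosa, such as Mrps18b in 2 of each group. Of 26 respiratory chain genes 76.9% were found, 8 more often in sgNr2f2 and 7 more often in sgRosa, such as the ATP synthase gene Atp5b in 1 and 2.

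Proteasome and histone genes were counted next. Of 19 genes with proteasome symbols 63.2% were found, 6 more often in each group, and Psme2, a subunit of the proteasome activator, was found in 0 sgNr2f2 and 3 sgRosa libraries. Of 66 histone genes 37.9% were found, 8 more often in sgNr2f2 and 13 more often in sgRosa. H3c1 and H4c1, which are neighbours, were found in 0 sgNr2f2 and 3 sgRosa libraries, and H2bc18 in 2 of each.

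Clusters with restricted expression were counted in the same way. Of 57 protocadherin genes, whose products label neurons at their surface, 47.4% were found, 20 more often in sgNr2f2 and 6 more often in sgRosa. Genes of the alpha cluster share a last end, so these are not separate observations. The window chr18:37000001-38000000, which holds genes of the alpha and beta clusters, had a log2 group difference of -0.065 (limma adjusted p = 0.964). Its relative density was 0.541, 1.62, 1.13 and 0.321 in sgNr2f2 1 to 4 and 1.19, 0.655, 0.877 and 0.789 in sgRosa 1 to 4. Of 26 kallikrein genes 61.5% were found, 9 more often in sgNr2f2 and 3 more often in sgRosa, with Klk9 in 3 and 0. Of 21 cytochrome P450 genes 66.7% were found, 3 more often in sgNr2f2 and 9 more often in sgRosa, with Cyp2d26 and Cyp2t4 in 0 and 2 each. Keratin genes numbered 97, with 41.2% found and 16 more often in sgNr2f2 and 19 more often in sgRosa. Of 33 genes with major histocompatibility symbols 51.5% were found, 7 more often in sgNr2f2 and 6 more often in sgRosa. Of 16 Hox genes 25% were found, 3 more often in sgNr2f2 and 1 more often in sgRosa.

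Genes of synapses and of the response to activity and stress were counted last. Of 18 synapse genes 72.2% were found in at least 1 library and 0 in 4 or more, against 58.1% and 1.45% of all gene-dense genes, with 6 more often in sgNr2f2 and 4 more often in sgRosa. Cacna1h was found in 2 sgNr2f2 and 0 sgRosa libraries, and the membrane fusion genes Syt3 and Syt7 in 1 of each group. Of 8 activity and stress genes 75.0% were found, 4 more often in sgNr2f2 and 2 more often in sgRosa, with Junb, Jund and Hspa1a in 1 sgNr2f2 library and Ier2 in 1 sgRosa library. With so few libraries per gene, no direction can be read from single members.

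The libraries had little else in common in these windows. In lists of equal length 11.5 ± 0.721% of gene-dense peaks in sgNr2f2 and 12.1 ± 0.999% in sgRosa (n = 4 each, SD) overlapped a peak of at least 1 other library. The difference of -0.62 percentage points did not pass (exact permutation p = 0.314, adjusted p = 0.314). It was -0.046 without sgRosa 1, -1.31 without sgRosa 4 and -3.21 among peaks with a q under 0.05, and passed in none of these.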

How the data were processed

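ATAC-seq peak lists of 8 libraries, 4 sgNr2f2 and 4 sgRosa, were used, each taken as 1 animal as the labels describe 4 mice per group; titles gave the group and replicate number. The submitters' processing notes name the build mm10, the peak caller MACS2 2.2.9.1, the annotation and differential tools HOMER 4.10 and DiffBind 3.10.0, and Picard, MultiQC 1.11, FastQC 0.11.9 and fastp 0.23.2 for reads. Neither an aligner nor duplicate handling, Tn5 shift or caller settings are given in the sources used here. Each deposited line holds the authors' score (a whole number), a summit's fold enrichment (ratio over background), and −log10 p and −log10 q values from the peak caller. Peaks were called by the authors per library, without scaling between libraries. The lists hold no read counts, so depth is unknown.

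Intervals with several summits were collapsed to the summit of highest −log10 p. Full lists were used unless lists of equal length (the strongest 52369 peaks) are named. Genes found by a summit near an end were counted in lists of equal length, apart from the cell type markers. So were promoters with a peak. The members and lists were chosen with earlier results of these data known. Gene starts, the 500 strongest peaks, the 2 relations and the 3 libraries needed for capitals in a sequence were added after seeing the data. Libraries were compared by two-sided exact sign-flip (256 patterns) or exact permutation (70 assignments) tests with Benjamini-Hochberg adjustment, and windows with limma 3.58.1 with trend (R 4.3.3; pseudocount 1), tested on simulated counts. P-values measure the spread between these libraries. Text names the 6 densest and 4 least dense windows, the regions of all 8 libraries, the 20 genes found in most libraries, exclusive genes and up to 4 members per list; other names were chosen after their values were seen. Some members that this rule names are not reported here. Sequences, and coordinates of genes, came from RefSeq GRCm38.p6; no genome sequence was used here. Calculations ran in Python 3.11.15 with scipy 1.17.1, pandas 2.3.3 and numpy 2.4.6, and plots in matplotlib 3.10.9.

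Alternatives were each library left out, the other list length, q under 0.05, ranking by fold, 20 or 30 genes per window, windows moved by 500 kb, other distances and the replicate numbers as a block.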

Additional observations from a re-analysis of the deposited data

Results flagged for a closer look

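In 34 groups of 4 libraries, 4 values stood far from the other 3 of their group; chance flags about 1 in 20 groups. The enrichment at gene ends of gene-dense windows was 1.01 in sgNr2f2 2, below the other sgNr2f2 libraries. The relative density at the other end of genes was 0.888 in sgRosa 2, below the other sgRosa libraries. The relative density of the window on chromosome 8 from 70 Mb was 2.47 in sgRosa 3, above the other sgRosa libraries, and that of the window on chromosome 17 from 25 Mb was 1.23 in sgNr2f2 2, below the other sgNr2f2 libraries.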

How the results depend on the processing

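Of the values under alternatives, 212 kept their direction and side of the threshold, or their size. Of the others, 29 moved, 5 changed sign, 5 came to pass the threshold and 3 no longer passed it. For the exact tests this threshold was an exact p of 0.05 without adjustment. The log2 density ratio of gene-dense to other windows was 0.080 to 0.21 with 1 library left out, and its exact p ran from 0.0703 to 0.531 over 16 alternatives. The group difference in density had exact p of 0.0571 to 0.229 over 17. The group difference in the share of peaks overlapping another library was -1.31 to -0.046 percentage points with 1 library left out.

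The strength difference changed sign in lists of equal length (0.51), among peaks with q under 0.05 (1.03) and without sgNr2f2 4 (0.074; range with 1 library left out -0.24 to 0.074), and had an exact p of 0.0469 in windows moved by 500 kb (-0.49). Between groups it was -2.17 among peaks with q under 0.05 (exact p = 0.0286). Gene-end enrichment in gene-dense against other windows turned to -0.12 among peaks with q under 0.05; between groups it was -0.29 to -0.15 with 1 library left out. For gene starts, gene-dense against other windows gave -0.082 to 0.038 with 1 library left out, the sign turning without sgNr2f2 3, and -0.49 with q under 0.05. The group difference at starts was -1.33 to -0.82, and start over other end was 0.48 with q under 0.05. The excess among the 500 strongest was 0.17 for the strongest 5000 and 0.16 without regions of all 8 libraries, and 12 other alternatives kept its side of the threshold. The causes were not tested.

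Counts of exclusive features moved, and no share over all regions or genes stands beside them for these settings. With a library left out the rule also asks for fewer libraries. These counts can therefore not be read against the background given above. With 1 library left out, regions only in sgNr2f2 numbered 0 to 5 and only in sgRosa 0 to 2, gene ends only in sgNr2f2 0 to 9 and only in sgRosa 1 to 7, and windows higher in sgNr2f2 0 to 1. Full lists gave 1 region and 3 gene ends only in sgNr2f2 and 2 gene ends only in sgRosa; a reach of 2 kb gave 3 and 4 gene ends.

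Deviations of same-numbered libraries 1 to 4 had correlations of 0.071, 0.047, 0.18 and -0.00085. Number 3 was a best match both ways and the other numbers were not, so the numbers were not taken as pairs. With a replicate block, whose smallest p is 0.125, the group difference in density of 0.41 had an exact p of 0.125, and no call changed. Unknown depth and weak peaks limit every count.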
